A study of Mus musculus with 8 samples.

Results

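The lysyl oxidase family was examined in single-cell RNA sequencing data from newborn mouse parietal bone. Its members were chosen by gene symbol as Lox, Loxl1, Loxl2, Loxl3 and Loxl4, which are 5 of the 31053 genes listed in every library. The study compared bone cells of wild-type (WT) pups with those of pups heterozygous for the G610C substitution (Het), which replaces a glycine of the type I procollagen chain encoded by Col1a2 and models osteogenesis imperfecta. All pups belonged to the strain labelled B6.129(FVB)-Col1a2tm1Mcbr/J, were collected at age P4-5 and received no treatment named in the labels, so the genotype was the only labelled difference between the groups. Each library held cells pooled from up to 5 animals of 1 genotype, released from the bone with collagenase. There were 4 WT libraries (numbered 1, 2, 5 and 6 after their labels) and 4 Het libraries (3, 4, 7 and 8). Libraries 1 to 4 were made with version 3 of the 10x Genomics 3′ kit, and libraries 5 to 8 with version 3.1 and a later release of the counting software. The mutation is a point change, so counts of the Col1a2 transcript could not check the genotype labels.

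Lysyl oxidases are secreted copper-dependent enzymes that oxidise lysine and hydroxylysine side chains of collagen and elastin to aldehydes, which then condense into the covalent crosslinks that give these fibres their strength. Lox and Loxl1 are made as proenzymes that are cleaved outside the cell by procollagen C-proteinases of the Bmp1 family, whereas Loxl2, Loxl3 and Loxl4 carry scavenger receptor cysteine-rich domains ahead of the same catalytic domain. Lox is best known for fibrillar collagens, Loxl1 for elastic fibres, and Loxl2 also for the type IV collagen of basement membranes. In bone, crosslinks of type I collagen are laid down by osteoblasts as they deposit osteoid.

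The catalytic domain holds a copper-binding motif with 4 histidines, and its coding stretch is shown for Loxl1 to Loxl4 because all members share it and 2 pairs, Lox with Loxl1 and Loxl2 with Loxl4, are close in it. The sequences were taken from the GENCODE M21 transcripts of mouse build GRCm38, are written 5′ to 3′ on the coding strand, and carry the histidine codons in capitals.
Loxl1: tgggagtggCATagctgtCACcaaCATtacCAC
Loxl2: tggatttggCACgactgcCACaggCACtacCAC
Loxl3: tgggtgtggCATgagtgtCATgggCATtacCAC
Loxl4: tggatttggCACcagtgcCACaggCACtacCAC
Over these 33 bases Lox and Loxl1 were identical at 32, Loxl2 and Loxl4 at 31, and the other pairs at 21 to 25. The motif lies on chromosome 9 at 58293720 to 58294381 in Loxl1, chromosome 14 at 69682316 to 69689037 in Loxl2, chromosome 6 at 83049995 to 83050125 in Loxl3 and chromosome 19 at 42598807 to 42599899 in Loxl4, with an intron inside each span. In each gene it crosses the junction of a pair of coding exons, which are exons 3 and 4 of 7 in Lox and Loxl1, exons 10 and 11 of 14 in Loxl2 and Loxl3, and exons 11 and 12 of 15 in Loxl4.

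The genes lie on different chromosomes. Lox is on the minus strand of chromosome 18 (52516067 to 52529867), Loxl1 on the minus strand of chromosome 9 (58287738 to 58313186), Loxl2 on the plus strand of chromosome 14 (69609068 to 69695834), Loxl3 on the plus strand of chromosome 6 (83034173 to 83052562) and Loxl4 on the minus strand of chromosome 19 (42593982 to 42612813). Loxl3 overlaps Htra2 on the opposite strand, Lox and Loxl2 overlap predicted genes there, and Loxl2 and Loxl3 each hold a microRNA gene on their own strand.

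The 8 libraries held 68625 cell barcodes with 30480239 to 85162035 unique molecular identifiers (UMIs, each counting 1 captured transcript molecule) per library. A minimum of 500 detected genes and a mitochondrial share below 10% left 46420 cells. Osteoblasts (OBs) were the 2671 cells (1706 WT, 965 Het) in which Col1a1 reached 10 UMIs and 2 or all of Runx2, Sp7 and Ibsp reached 2 UMIs each. By the share of Col1a1 in their UMIs, 379 were early (eOBs, under 0.75%), 1217 differentiating (dOBs, 0.75% to 3.5%) and 1075 mature (mOBs, over 3.5%), and 79 OBs (2.96%) lay within 10% of the lower limit and 212 (7.94%) of the upper one. All 8 osteoblast markers that the selection did not use (among them Alpl, Bglap and Spp1) were detected in each stage in every library, and all 8 were higher in OBs than in the other cells (edgeR's quasi-likelihood test). The other 43749 cells served as comparison, of which 8850 (20.2%) fitted no marker class and 21671 were chondrocyte-like, the largest class. Doublets were kept, and 244 of 46176 distinct barcodes occurred in more than 1 library. Markers of another class were carried by 1619 OBs, and 1183 of these carried at least 3 chondrocyte markers, which made up 56 of the 861 OBs under version 3 and 1127 of the 1810 under version 3.1. By stage, chondrocyte markers were carried by 167 of the 379 eOBs, 632 of the 1217 dOBs and 384 of the 1075 mOBs.

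Transcription of the family was split by osteoblast stage, as set by Col1a1 share. Lox, Loxl2 and Loxl4 were higher in mOBs than in eOBs, with Lox by 9.33-fold, whereas Loxl1 was lower in mOBs than in dOBs and Loxl3 showed no call between mOBs and either earlier stage. Levels are CPM, the UMIs of the gene in the cells of a stage in a library, scaled to a total of 1000000 UMIs. A 3′ assay captures genes unequally, so levels are compared within a gene and not between genes.

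**Figure D1:**
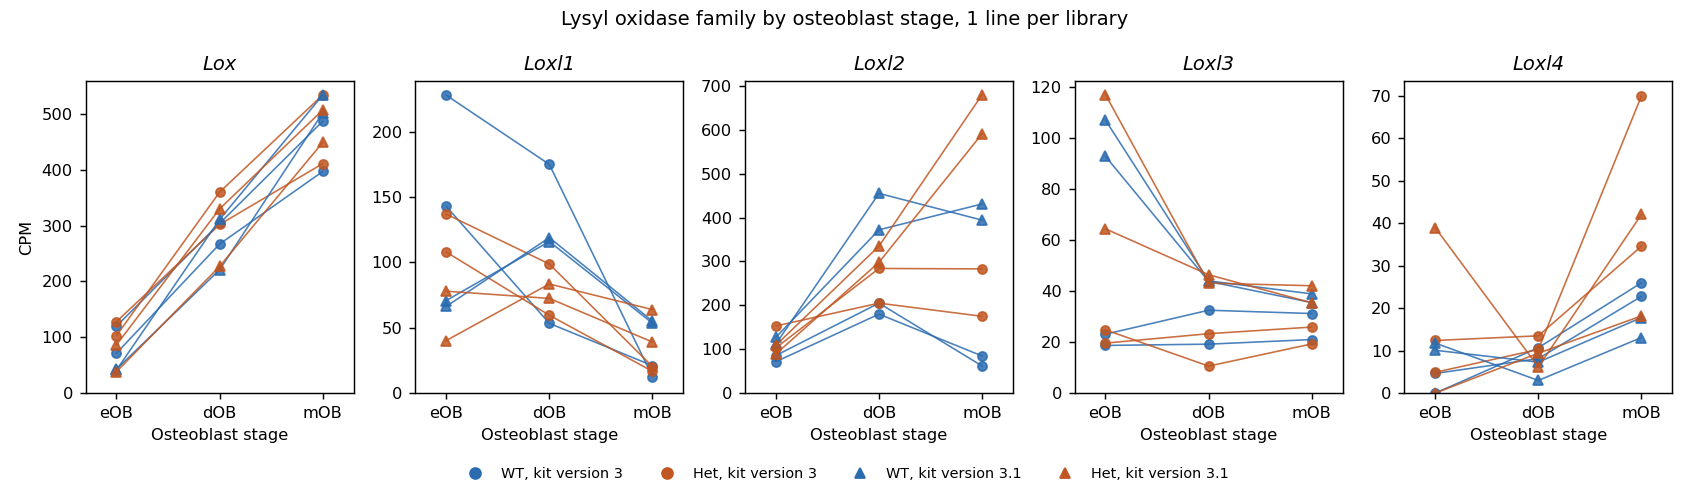
CPM (y axis) of each family member in eOBs, dOBs and mOBs (x axis), with 1 line per library, colour for genotype and symbol for kit version. Lox rose at both steps in all 8 libraries, Loxl1 fell from dOBs to mOBs in all 8, and Loxl2 in mOBs separated by kit version, with 61.8 to 283 CPM under version 3 and 394 to 680 under version 3.1.

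Lox, the founding enzyme of the family, increased at each step. In eOBs it stood at 120, 71.6, 41.3 and 42.9 CPM in WT 1, 2, 5 and 6 and at 128, 103, 38.5 and 86.4 in Het 3, 4, 7 and 8. In dOBs the corresponding levels were 304, 267, 311 and 221 in WT and 302, 360, 227 and 330 in Het. In mOBs they were 487, 397, 534 and 502 in WT and 411, 534, 449 and 507 in Het. The 3 stages did not overlap in Lox level, since the highest eOB library (128) lay under the lowest dOB library (221) and the highest dOB library (360) under the lowest mOB library (397), and WT and Het libraries were interleaved within each stage. The mean was 78.9 ± 36.1 in eOBs, 290 ± 48.4 in dOBs and 478 ± 53.0 in mOBs (SD, n = 8 libraries). By edgeR's quasi-likelihood test with Benjamini-Hochberg adjustment over all genes, the log2 change from eOBs to mOBs was 3.22 (SE 0.21, adjusted p = 2.86e-07), from eOBs to dOBs 2.09 (SE 0.17, adjusted p = 9.43e-06) and from dOBs to mOBs 1.10 (SE 0.08, adjusted p = 1.08e-06). The rise was seen in 8 of 8 libraries at each step. Of all genes tested, 4.30% were higher in mOBs than in eOBs in every library, 3.58% in mOBs than in dOBs and 3.52% in dOBs than in eOBs. The share of genes called was 28.6% between mOBs and eOBs (15.2% higher in mOBs), 31.5% between mOBs and dOBs (15.1% higher, 16.4% lower) and 13.4% between dOBs and eOBs (6.12% higher, 7.32% lower). Against these, 3 of the 5 members were called higher from eOBs to mOBs, 2 higher and 1 lower from dOBs to mOBs, and 2 higher and 1 lower from eOBs to dOBs.

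Loxl4, which like Loxl2 carries scavenger receptor domains, was low in the early and differentiating stages. Early OBs gave only 6, 0, 13 and 11 Loxl4 UMIs in WT 1, 2, 5 and 6 and 3, 1, 0 and 14 in Het 3, 4, 7 and 8. The level in dOBs was 8.13, 10.7, 7.30 and 2.99 CPM in WT and 13.5, 10.3, 9.40 and 6.16 in Het. In mOBs it was 22.8, 26.0, 17.8 and 13.1 in WT and 34.6, 70, 18.2 and 42.1 in Het, resting on 28 to 200 UMIs per library. Every library was higher in mOBs than in dOBs, although the lowest mOB library (13.1) was just under the highest dOB library (13.5). The log2 change from dOBs to mOBs was 2.05 (SE 0.21, adjusted p = 1.41e-05, edgeR), and that from eOBs to mOBs 1.94 (SE 0.43, adjusted p = 0.00414). The second value fell to 0.79 (adjusted p = 0.146, edgeR) with a looser selection of 1 UMI per gate gene, and without the OBs that carried chondrocyte markers Loxl4 had too few counts in this comparison to be tested.

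Loxl2, which acts on fibrillar and basement membrane collagens, rose between the early and the differentiating stage. It stood at 85.6, 71.6, 112 and 127 CPM in eOBs of WT 1, 2, 5 and 6 and at 153, 103, 109 and 89.1 in Het 3, 4, 7 and 8. In dOBs it was 205, 180, 455 and 372 in WT and 205, 284, 335 and 298 in Het, so that every dOB library lay above every eOB library. The log2 change was 1.54 (SE 0.14, adjusted p = 1.46e-05, edgeR). From dOBs to mOBs the libraries went different ways, falling in 5 and rising in 3, and the change of 0.30 (SE 0.22) was not called (adjusted p = 0.346, edgeR). In mOBs the WT libraries held 61.8, 84.6, 394 and 431 and the Het libraries 175, 283, 680 and 591, a mean of 151 ± 101 under kit version 3 and 524 ± 135 under version 3.1 (SD, n = 4 each). Against eOBs the mOB level was higher by 1.82 on the log2 scale (SE 0.31, adjusted p = 0.000684, edgeR), in 7 of 8 libraries.

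Loxl1, known for its part in elastic fibre maintenance, was lower in mOBs than in dOBs. It was at 175, 53.4, 119 and 116 CPM in dOBs of WT 1, 2, 5 and 6 and at 59.6, 98.8, 83.5 and 72.5 in Het 3, 4, 7 and 8. In mOBs it was 12.6, 21, 55.1 and 53.5 in WT and 16.7, 20.3, 63.9 and 39.1 in Het. The level fell in all 8 libraries, by 1.12 on the log2 scale (SE 0.24, adjusted p = 0.00274, edgeR), where 32.8% of genes tested were lower in all 8 libraries. As log2 ratios of mOBs to dOBs, the fall was larger under version 3 (-3.69 and -1.31 in WT 1 and 2, -1.78 and -2.23 in Het 3 and 4) by value. Under version 3.1 the ratios were -1.09 and -1.11 in WT 5 and 6 and -0.38 and -0.87 in Het 7 and 8, and the difference was not tested. The mOB level was 17.6 ± 3.86 under version 3 and 52.9 ± 10.3 under version 3.1 (SD, n = 4 each). Early OBs held 228, 143, 66.3 and 70.8 in WT and 108, 137, 40.2 and 78.0 in Het, and their difference from mOBs of -1.05 (SE 0.43) was not called (adjusted p = 0.0890, edgeR). From eOBs to dOBs Loxl1 was higher in 3 libraries, all of version 3.1, and lower in 5, and the change of 0.12 was not called (adjusted p = 0.823, edgeR). The difference between mOBs and eOBs was called at -1.94 (adjusted p = 3.49e-05, edgeR) without the OBs that carried chondrocyte markers.

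Loxl3, a further member with scavenger receptor domains, ranged from 19.3 to 42.1 CPM in mOBs and from 10.6 to 46.4 in dOBs, and the difference of 0.23 (SE 0.13) was not called (adjusted p = 0.189, edgeR). In eOBs it was 23.1 and 18.7 in WT 1 and 2, 24.8 and 19.6 in Het 3 and 4, 92.8 and 107 in WT 5 and 6, and 64.4 and 117 in Het 7 and 8. The 4 version 3.1 libraries were thus above the 4 version 3 libraries. Their eOBs also held the higher summed chondrocyte markers, at 12310 to 31277 CPM against 143 to 3696, with 5 of 10 markers detected in every library and none at 0 in all. Loxl3 was lower in dOBs than in eOBs by 0.70 on the log2 scale (SE 0.20, adjusted p = 0.0353, edgeR), and the value turned to 0.25 without the OBs that carried chondrocyte markers. By library ratio it fell in 5 libraries and rose in 3 (WT 1, WT 2 and Het 4, all of version 3), and 7 of 17 alternatives called the fall. The change to mOBs (-0.36, SE 0.26, adjusted p = 0.335, edgeR) turned to 0.58 in the same way.

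Along finer steps of Col1a1 share the members followed separate courses. Mean Lox over the WT libraries went from 68.9 CPM under 0.75% Col1a1 through 222, 359, 438 and 465 to 500 over 8%, and the Het means of 89.0, 213, 417, 435, 451 and 564 followed the same course. The mean of Loxl2 was highest at 3.5 to 5% Col1a1, at 536 in WT (3 libraries, without WT 1) and 638 in Het (4 libraries), against 445 in WT (3 libraries, without WT 2) and 335 in Het (4 libraries) at 2 to 3.5%. In WT 5 the level was higher at 2 to 3.5% than at 3.5 to 5% (595 against 569). Over 8% the mean was 93.4 in WT and 207 in Het, and each of the 7 libraries with at least 10 cells in both steps was lower there than at 3.5 to 5%. Loxl1 declined from 127 to 6.63 in WT and from 90.8 to 11.9 in Het. Loxl2 thus changed within the mature stage itself. The steps are read as a description, since Col1a1 was the measure that ordered the cells.

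**Figure D2:**
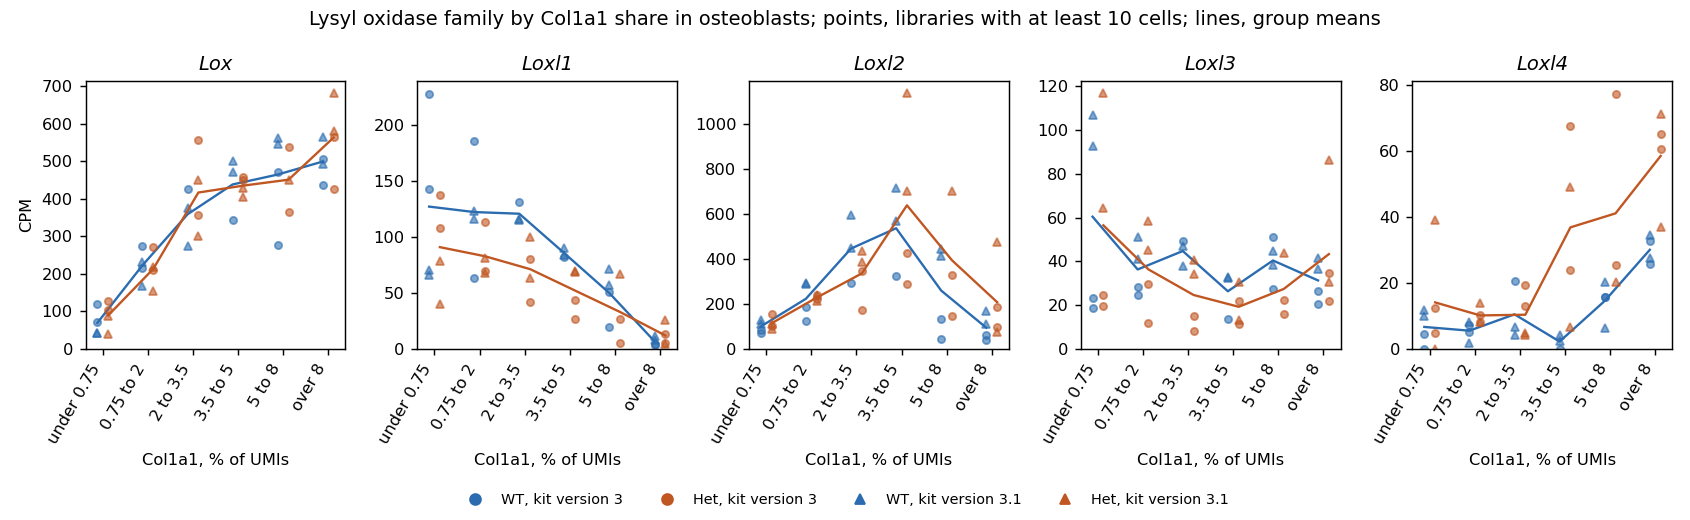
CPM (y axis) of each member in OBs grouped by Col1a1 share (x axis, percent of UMIs). Points are libraries with at least 10 cells in the group, and lines join the means of WT and of Het libraries. Lox climbed to 500 (WT) and 564 (Het) over 8% Col1a1, Loxl1 declined, and the mean of Loxl2 was highest at 3.5 to 5%, where WT is the mean of 3 libraries.

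Counted by cells, the share of OBs with at least 1 Lox UMI was 42.0% in eOBs, 80.3% in dOBs and 94.1% in mOBs, against 5.21% in haematopoietic-like cells, which should lack the gene and serve as the background from free RNA. Median depth was 10877, 14554, 15574 and 5000 UMIs per cell in these groups. With each cell thinned to 2000 UMIs the Lox shares were 12%, 35.4%, 56.2% and 2.13%. The thinned share of Loxl1 was lower in mOBs, at 7.79%, than in eOBs (21.5%) and dOBs (18.6%), against unthinned shares of 35.2%, 55.9% and 61.5% and a haematopoietic-like 2.85% (1.13% thinned). Loxl4 was found in 28.0% of mOBs (6.01% thinned) against 8.13% of dOBs (0.702%) and 0.131% of haematopoietic-like cells (0.105%).

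Outside the osteoblasts each member had its own distribution. OBs were higher than all other cells together in Lox, by 2.64 on the log2 scale (SE 0.39, adjusted p = 0.000434, edgeR), and in Loxl2, by 1.39 (SE 0.19, adjusted p = 0.000265), each in 8 of 8 libraries, where 37.2% of genes were called (14.5% higher in OBs) and 7.13% were higher in all 8 libraries. Loxl1 (0.62, adjusted p = 0.195), Loxl3 (-0.63, adjusted p = 0.176) and Loxl4 (0.30, adjusted p = 0.733) were not called by the same test. In sums over a class, a lower level cannot be told apart from fewer cells of the class that make the transcript.

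**Figure D3:**
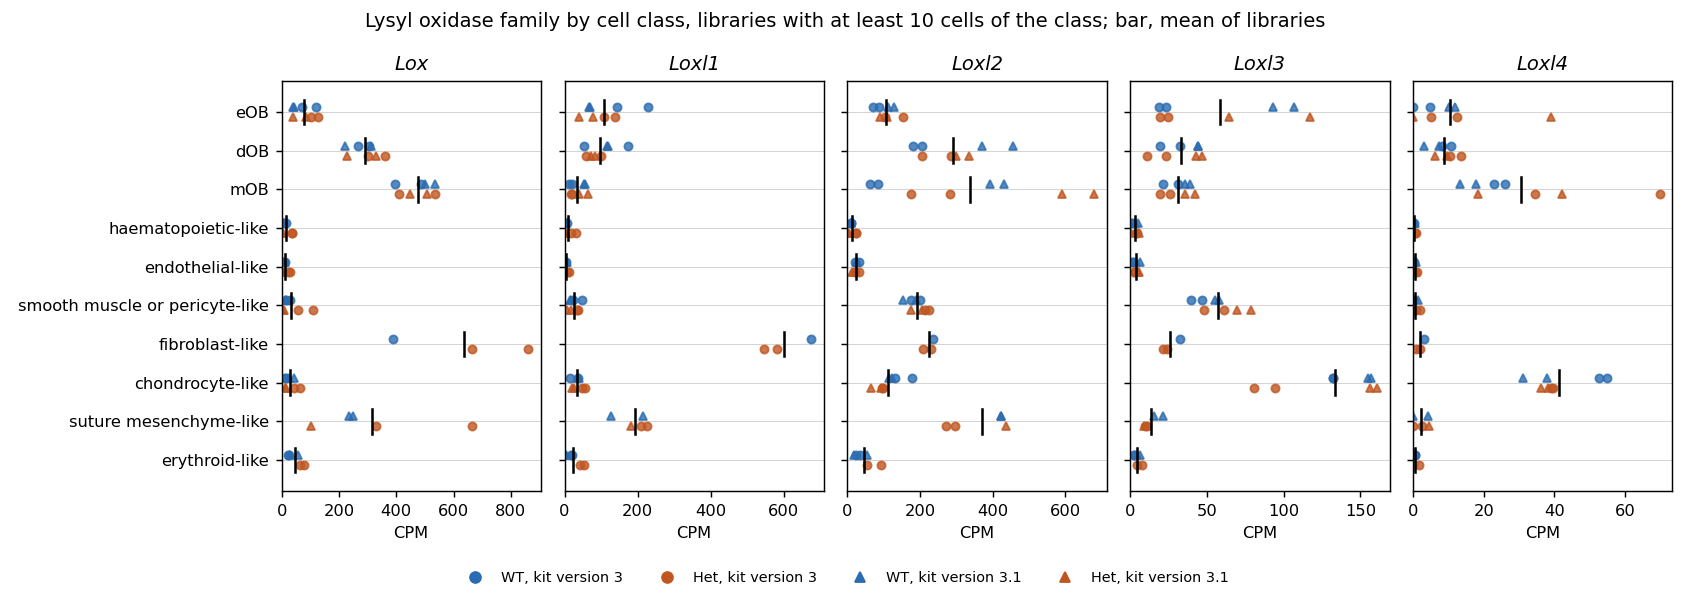
CPM (x axis) of each member by osteoblast stage and cell class (y axis). Points are libraries with at least 10 cells of the class and bars their mean. The means of Loxl3 (133) and Loxl4 (41.2) were highest in chondrocyte-like cells, and those of Lox (638) and Loxl1 (601) in the fibroblast-like cells of 3 libraries.

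Fibroblast-like cells, found in at least 10 cells in only 3 libraries (WT 1, Het 3 and Het 4), had the highest mean of Lox, at 638 ± 238 CPM (SD, n = 3), and of Loxl1, at 601 ± 67.1. These means are set against those of other sets of libraries. In the 3 shared libraries Lox was higher in fibroblast-like cells than in mOBs in 2, and lower in WT 1 (388 against 487). Suture mesenchyme-like cells held 316 ± 211 of Lox, 192 ± 39.3 of Loxl1 and 371 ± 79.0 of Loxl2 (SD, n = 5), the last being the highest mean of that gene over unlike sets of libraries. In the 5 libraries shared with mOBs, Loxl2 was higher in suture mesenchyme-like cells in 2 and in mOBs in 3. Smooth muscle or pericyte-like cells had 191 ± 23.5 of Loxl2 but only 31.5 ± 34.7 of Lox (SD, n = 8). Haematopoietic-like cells were low for all 5 members, with 14.5 for Lox, 8.89 for Loxl1, 11.2 for Loxl2, 2.97 for Loxl3 and 0.263 for Loxl4.

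Over all libraries pooled, most Loxl3 and Loxl4 UMIs lay in chondrocyte-like cells, the cartilage class marked by genes such as Col2a1 and Acan. These cells held 89.3% of the 36517 Loxl3 UMIs and 89.4% of the 8841 Loxl4 UMIs in kept cells, against 13.1% of the 43504 Lox UMIs. These shares are pooled over libraries with 153 (WT 1) to 7873 (WT 5) chondrocyte-like cells. In WT 1 and 2, which held the fewest, OBs were above all other cells together in Loxl3 (by 1.14 and 0.96 on the log2 scale) and in Loxl4 (by 1.73 and 2.19), whereas under version 3.1 OBs were below them in both genes in all 4 libraries. In chondrocyte-like cells Loxl3 stood at 132, 132, 155 and 157 CPM in WT 1, 2, 5 and 6 and at 80.6, 94.5, 156 and 161 in Het 3, 4, 7 and 8. Loxl4 stood at 52.6, 54.8, 31.2 and 37.8 in WT and at 39.5, 39.1, 38.1 and 36.3 in Het. Each Loxl3 value was above every mOB and dOB library, and Loxl4 in chondrocyte-like cells (41.2 ± 8.18, SD, n = 8) overlapped its level in mOBs (30.6 ± 18.5). OBs held 35.8% of all Lox UMIs, 26.6% of Loxl2, 15.5% of Loxl1, 8.18% of Loxl4 and 5.03% of Loxl3. The cells that fitted no class held 36.4% of Lox, 33.2% of Loxl1, 24.8% of Loxl2, 3.28% of Loxl3 and 1.82% of Loxl4. Of the 45 pairs of neighbours in the 5 orders of mean level, 9 differed at an unadjusted p under 0.05 in an exact sign-flip test over shared libraries and 0 after Benjamini-Hochberg adjustment (lowest adjusted p = 0.0502, exact). In 7 of the 9 all 8 shared libraries went the same way, which gives the smallest exact p that 8 libraries allow (0.00781), so that the number of libraries limited the adjusted value. These were Lox in dOBs over eOBs and in chondrocyte-like over haematopoietic-like cells, Loxl1 in dOBs over mOBs, Loxl2 in smooth muscle or pericyte-like over chondrocyte-like cells, Loxl3 in chondrocyte-like cells over eOBs and in smooth muscle or pericyte-like cells over dOBs, and Loxl4 in mOBs over eOBs. The 3 of these that compare OB stages were called by edgeR above. Pairs that shared 3 libraries could not reach an exact p below 0.250.

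The study's main question was how the mutant procollagen changes osteoblasts, and Het was compared with WT at each stage with kit version in the model. In mOBs Loxl2 and Loxl4 were higher in Het in each kit version, and no member passed the test over all genes. The 51 called genes in mOBs were 0.530% of 9623 tested, and 2 of the 5 members had an unadjusted p under 0.05, as had 1076 genes (11.2%).

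**Figure D4:**
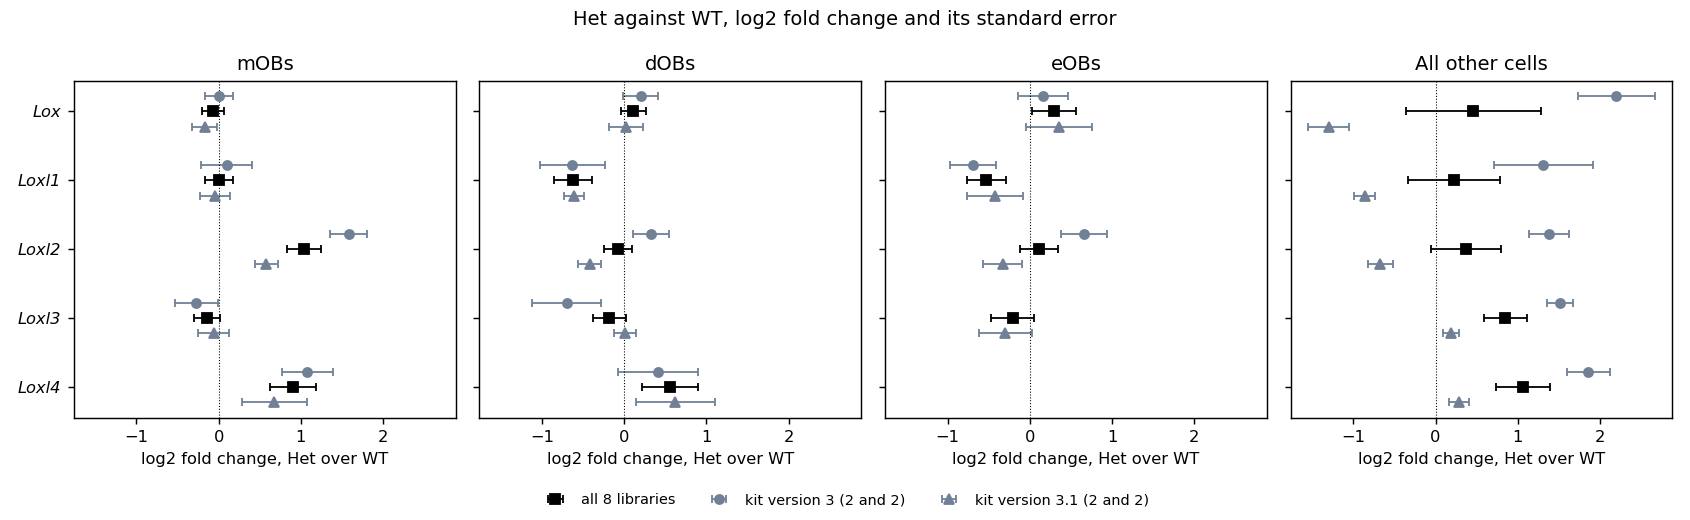
Log2 fold change of Het over WT (x axis) with its standard error for each member (y axis) in mOBs, dOBs, eOBs and all other cells, from edgeR over all 8 libraries and within each kit version. In mOBs Loxl2 (1.04) and Loxl4 (0.91) lay to the right of 0 in every fit, and in all other cells Lox was at 2.20 under version 3 and at -1.30 under version 3.1.

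For Loxl2 the mOB levels of WT 1 and 2 (61.8 and 84.6) were under those of Het 3 and 4 (175 and 283), and those of WT 5 and 6 (394 and 431) under those of Het 7 and 8 (680 and 591). The groups overlapped across kit versions, since WT 5 and 6 exceeded Het 3 and 4. The log2 difference was 1.04 (SE 0.21), with an adjusted p = 0.0594 by edgeR's quasi-likelihood test. It was 1.58 within version 3 (adjusted p = 0.00308) and 0.58 within version 3.1 (adjusted p = 0.489), each fit on 4 libraries. The share of genes called in these fits is not given. DESeq2, which called 1.38% of genes, gave 1.05 with an adjusted p of 0.00186. EdgeR without a filter on low counts, a setting that called many more genes in mOBs than the main test, also called it. With 1 library left out at a time the difference was 0.81 to 1.16, and it was called without Het 7 or Het 8 (adjusted p = 0.0387 and 0.0326, edgeR) but not without any of the other 6 (adjusted p from 0.0790 to 0.231). Leaving out the OBs with chondrocyte markers gave 0.82 (adjusted p = 0.170, edgeR), and leaving out all OBs with markers of another class gave 0.66 (adjusted p = 0.642), with WT 2 dropped for too few cells. The groups did not overlap within either kit version for Loxl2 and Loxl4, an order that 7.59% of genes tested showed with Het above.

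The Col1a1 share of mOBs was lower in Het than in WT under version 3 and overlapped between the genotypes under version 3.1. Summed over mOBs, Col1a1 took 12.3% and 10.6% of UMIs in WT 1 and 2, 6.69% and 8.22% in Het 3 and 4, 7.84% and 8.27% in WT 5 and 6, and 5.80% and 8.41% in Het 7 and 8. The share of mOBs over 8% Col1a1, where Loxl2 was lower in both genotypes, was 71.2% and 64.9% in WT 1 and 2 against 25.3% and 47.4% in Het 3 and 4, and 28.8% and 32.7% in WT 5 and 6 against 17.1% and 38.1% in Het 7 and 8. Within steps of Col1a1 share, Loxl2 over 8% was 37.7 and 60.1 in WT against 94.6 and 187 in Het under version 3, and 167 and 109 in WT against 473 and 74.1 in Het under version 3.1, which overlapped. From 5 to 8% it was 133 and 43.1 against 146 and 330, and 413 and 445 against 703 in the 1 Het library with at least 10 cells. From 3.5 to 5% WT and Het overlapped in both kit versions. Summed chondrocyte markers in mOBs overlapped under version 3, at 39.0 to 393 CPM in WT and 278 to 819 in Het. Under version 3.1 they were higher in Het without overlap, at 1181 to 1209 in WT and 1622 to 2857 in Het. Of the 10 markers, 9 were higher in Het by value and 0 were called (edgeR), and 8 of 10 were detected in every library. Summed smooth muscle or pericyte markers were higher in Het without overlap, at 76.2 to 98.4 CPM in WT and 229 to 276 in Het under version 3 and at 185 to 228 and 326 to 453 under version 3.1 (4 of 8 detected in every library, none at 0 in all). Of the 4 tested, Acta2, the actin of smooth muscle, was called higher in Het (1.55, adjusted p = 0.0349, edgeR), Cspg4 was at 0.91, and Abcc9 (-1.17) and Notch3 (-0.48) lay on the other side of 0, none of these 3 called. The sum of the osteoblast markers was lower in Het without overlap, at 41259 to 53296 CPM in WT and 20400 to 22202 in Het under version 3 and at 20682 to 22043 and 12819 to 15721 under version 3.1, and of the 8 tested Bglap, the osteocalcin gene, was called lower in Het (-2.08, adjusted p = 0.0434, edgeR), 3 others were lower and 4 higher by value, and the median was -0.14. These markers were named after their values were seen. Haematopoietic markers were also lower in Het without overlap, at 488 to 671 CPM in WT and 32 to 164 in Het under version 3 and at 9.57 to 17.8 and 1.5 to 8.32 under version 3.1 (1 of 11 detected in every library, Cd3e at 0 in all, 2 tested, 0 called). Fibroblast markers were higher in Het without overlap under version 3 (18.6 to 27.5 CPM in WT, 45.2 to 125 in Het) and overlapped under version 3.1 (66.8 to 67.7 and 54.2 to 116), with 4 of 8 detected in every library, 4 tested and 0 called. Endothelial markers did the same, at 11.6 to 15.0 and 27.7 to 34.6 under version 3 and at 11.7 to 19.1 and 7.52 to 20.8 under version 3.1 (1 of 9 detected in every library, 1 tested, 0 called). Erythroid markers overlapped in both kit versions, at 493 to 12719 CPM in WT and 448 to 2621 in Het under version 3 and at 94.7 to 330 and 27.1 to 267 under version 3.1 (5 of 7 detected in every library, 4 tested, 0 called). Suture mesenchyme markers were lower in Het without overlap under version 3 (542 to 658 CPM in WT, 485 to 511 in Het) and overlapped under version 3.1 (626 to 689 and 639 to 734), with 8 of 8 detected in every library, 6 tested and 0 called. Schwann markers, near 0 throughout (0.520 to 16.5 CPM, 1 of 5 detected in every library, Sox2 at 0 in all, none tested), were at 1.20 to 1.45 in WT and 2.45 to 5.33 in Het under version 3. The part of these measures in the Loxl2 and Loxl4 differences was not tested.

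Loxl4 in mOBs was 19.9 ± 5.68 CPM in WT and 41.2 ± 21.6 in Het (SD, n = 4 each), a log2 difference of 0.91 (SE 0.28) with an adjusted p = 0.211 by edgeR. It was 0.59 without Het 4 (adjusted p = 0.561, edgeR) and was called at 1.21 without Het 7 (adjusted p = 0.0460). Without the OBs with chondrocyte markers it was 0.99 (adjusted p = 0.0846, edgeR), and without all OBs with markers of another class, again with WT 2 dropped, 0.71 (adjusted p = 0.701). The Het libraries were above the WT libraries within both kit versions, though by a small margin for Het 7 (18.2 against 17.8 in WT 5). At 3.5 to 5% Col1a1 the version 3 level was 0 in WT 2 (10 cells, with WT 1 under this minimum) and 23.9 and 67.6 in Het 3 and 4, and the version 3.1 level 2.27 and 4.31 in WT against 6.72 and 49.2 in Het. From 5 to 8% it was 15.7 in both WT 1 and WT 2 against 25.5 and 77.4 in Het 3 and 4, and 20.3 and 6.41 in WT 5 and 6 against 20.4 in Het 7, the 1 Het library with at least 10 cells there. Over 8% it was 25.6 and 32.6 in WT 1 and 2, 60.6 and 65.2 in Het 3 and 4, 34.4 and 27.6 in WT 5 and 6, and 71.3 and 37.0 in Het 7 and 8. Het lay above WT within both kit versions at each of the 3 steps of the mature stage, though Het 7 and WT 5 were almost equal from 5 to 8%, an order shown by 6.98%, 6.66% and 4.62% of genes at these steps. The share of mOBs with a Loxl4 UMI was 20.7% in WT (95% exact binomial interval 17.7 to 24.0) and 39.5% in Het (34.8 to 44.3), or 4.16% and 8.89% in cells thinned to 2000 UMIs. These shares pool cells of unlike libraries, since WT 5 and 6 gave 299 and 208 of the 657 WT mOBs and Het 4, the library with the highest Loxl4 level, gave 192 of the 418 Het mOBs, and the intervals cover counting error only. For Loxl2 the same shares were 71.5% in WT (67.9 to 75) and 75.8% in Het (71.4 to 79.9), with overlapping intervals, or 36.7% and 39.2% in thinned cells, against 4.35% of haematopoietic-like cells (1.59% thinned).

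Lox, the member with the most UMIs in mOBs, was 480 ± 58.8 CPM in WT and 475 ± 55.6 in Het (SD, n = 4 each), with a log2 difference of -0.07 (SE 0.13, adjusted p = 0.913, edgeR). Loxl1 differed by 0.01 (SE 0.17, adjusted p = 0.996) and Loxl3 by -0.14 (SE 0.16, adjusted p = 0.826). In dOBs, where 0.0101% of genes (1 of 9857) were called and 740 (7.51%) had an unadjusted p under 0.05, Loxl1 was 1 of these, with a difference of -0.62 (SE 0.23, adjusted p = 0.616, edgeR). It was -1.39 (adjusted p = 0.0919, edgeR, 7 libraries, WT 2 left out for too few cells) without OBs with markers of another class and -0.20 (adjusted p = 0.913) with the looser selection, and was called at -0.63 without a filter on low counts (adjusted p = 0.00341). In eOBs Loxl1 differed by -0.53 (adjusted p = 1.0, edgeR), and Loxl4 had too few counts to be tested. No gene was called in eOBs by edgeR among 8118 tested (310, or 3.82%, at an unadjusted p under 0.05, and 3, or 0.0370%, by DESeq2).

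Whether the Loxl2 difference itself varied with maturity was tested as a genotype by stage term. The difference was larger in mOBs than in dOBs by 1.03 on the log2 scale (SE 0.35, adjusted p = 0.996, edgeR) and larger than in eOBs by 0.91 (SE 0.58, not called). The first value fell to 0.45 without OBs with markers of another class and to 0.57 without those with chondrocyte markers, and the second ran from 0.48 (without WT 1) to 1.4 (without Het 3) with 1 library left out at a time, and to 1.99 with stricter selection. In the main test no gene was called by edgeR for the first term (488, or 4.61%, at an unadjusted p under 0.05, Loxl2 among them, and 3, or 0.0284%, by DESeq2) or for the second (351, or 3.35%, and 0 by DESeq2). Without a filter on low counts, a setting that also called other genes for these terms, edgeR called Loxl2 for the first term (1.02, adjusted p = 0.000418). As a second measure, the level in mOBs was divided, within each library, by the level of the earlier OBs (eOBs and dOBs pooled) and expressed as log2. It was -1.20, -0.67, -0.01 and 0.35 for Loxl2 in WT 1, 2, 5 and 6 and -0.15, 0.15, 1.28 and 1.20 in Het 3, 4, 7 and 8, a difference of 1.0 that was 0.94 and 1.07 within the kit versions (p = 0.143, adjusted p = 0.357 over 5 members, two-sided exact permutation test over 70 assignments). These assignments crossed the kit versions, whose ratios differed. With the 36 assignments within kit versions the exact permutation p was 0.0556, the smallest these allow, and the adjusted p 0.278. The ratio for Lox was 1.16 ± 0.15 in WT and 0.88 ± 0.30 in Het (SD, n = 4 each, exact permutation p = 0.143, adjusted p = 0.357), positive in all 8 libraries. The smallest p that 70 assignments allow is 0.0286.

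In all other cells Het and WT could be compared only across mixtures that differed in makeup. No gene was called by edgeR among 16502 tested, although 4234 (25.7%) had an unadjusted p under 0.05 and DESeq2 called 1947 (12.5%). Loxl3 differed by 0.85 (SE 0.26, adjusted p = 0.171, edgeR) and Loxl4 by 1.06 (SE 0.33, adjusted p = 0.171), and DESeq2 called both (adjusted p = 0.0325 and 0.0281). Within version 3 edgeR called both, Loxl3 at 1.51 (adjusted p = 0.00695) and Loxl4 at 1.86 (adjusted p = 0.0105), and within version 3.1 neither (0.19, adjusted p = 0.488, and 0.29, adjusted p = 0.396). All 10 chondrocyte markers were higher in Het by value (median 1.26 on the log2 scale), their summed level in the other cells running from 2327 to 2871 CPM in WT 1 and 2, 12127 to 16436 in Het 3 and 4, 44286 to 44844 in WT 5 and 6 and 51536 to 59934 in Het 7 and 8. Within chondrocyte-like cells the Loxl3 and Loxl4 levels given above were not higher in Het 3 and 4 than in WT 1 and 2. Lox differed by 2.20 within version 3 and by -1.30 within version 3.1, Loxl1 by 1.31 and -0.86 and Loxl2 by 1.38 and -0.67, so that these members turned direction with the kit version. Within version 3 edgeR also called Lox (adjusted p = 0.0247) and Loxl2 (adjusted p = 0.0162) but not Loxl1 (adjusted p = 0.143). The share of all genes called in that fit is not given, so these calls do not set the members apart from other genes. Of the 1153 fibroblast-like cells, in which the means of Lox and Loxl1 over 3 libraries were the highest, WT 1 held 317, WT 2 held 5, Het 3 held 238 and Het 4 held 581, against 0 to 6 in the version 3.1 libraries. The part of these cells in the difference was not tested.

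The genes with which lysyl oxidases work were followed through 7 lists holding 55 genes. The lists were chosen with earlier results of these data known, so the shares set against all genes are descriptions. In mOBs against dOBs 54 were tested, of which 21 rose and 14 fell (64.8%, against 31.5% of all genes), and in mOBs against eOBs 51 were tested, of which 19 rose and 12 fell (60.8%, against 28.6%). Col1a1 set the stages, so its own rise and the counts that include it are descriptions. Col1a2 encodes the other chain of type I procollagen and is not independent of that ordering, so its rise is a description too. Of the 11 collagen genes 6 rose and 3 fell from dOBs to mOBs, with a median of 1.06 against -0.03 over all genes tested. The 6 that rose were fibrillar collagens, with Col1a2 up by 2.30 (SE 0.19, adjusted p = 2.02e-06, edgeR), Col11a2 by 2.58 (SE 0.50, adjusted p = 0.00152) and Col5a2 by 1.21 (SE 0.10, adjusted p = 3.42e-06) on the log2 scale. The basement membrane chains Col4a1 (-1.95, adjusted p = 5.52e-06) and Col4a2 (-1.63, adjusted p = 5.92e-05) fell by the same test, as did the fibrillar Col5a3 (-1.41, adjusted p = 0.000340). The fibrillar Col3a1 (-0.33, adjusted p = 0.377) and Col2a1 (-0.81, adjusted p = 0.211) were not called.

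Of the 16 elastic fibre and scaffold genes 8 fell and 2 rose from dOBs to mOBs, with a median of -0.92. Over all genes tested, 16.4% were called lower and 15.1% higher at this step, which is the background for every list count below. Ltbp2, a latent TGF-β binding protein of microfibrils, fell by 2.26 (SE 0.32, adjusted p = 0.000148, edgeR), Mfap4 by 1.51 (SE 0.21, adjusted p = 0.000143), Efemp1 by 1.5 (SE 0.42, adjusted p = 0.0160) and Fbln2 by 1.44 (SE 0.20, adjusted p = 0.000130). Of the 6 lysine hydroxylation genes, whose products make the hydroxylysine that lysyl oxidases act on, 4 rose from dOBs to mOBs and 0 fell. From eOBs to mOBs, where 15.2% of all genes tested were called higher, 5 rose and 0 fell. Of the 4 copper delivery genes 3 rose from dOBs to mOBs and 0 fell. Among the 6 tested genes of proenzyme activation 2 rose and 1 fell. Those that rose were Bmp1, the proteinase that releases active Lox (1.15, SE 0.09, adjusted p = 9.82e-07, edgeR), and Pcolce, its enhancer on procollagen (0.88, SE 0.11, adjusted p = 5.96e-05), and Tll1 fell (-1.30, SE 0.35, adjusted p = 0.0125). These 3 were named after their values were seen. Postn, a matricellular protein that supports Bmp1 action on Lox, rose by 2.03 (SE 0.26, adjusted p = 0.000170, edgeR) from eOBs to dOBs. Tgfb1, a known inducer of Lox, rose by 1.81 (SE 0.14, adjusted p = 1.08e-06) from eOBs to mOBs, and Ctgf fell by 2.30 (SE 0.21, adjusted p = 4.74e-06).

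Between genotypes no partner gene was called by edgeR at any stage or in the other cells. In mOBs 18 of the 50 tested had an unadjusted p under 0.05, against 11.2% of all genes, as had 7 of 53 in dOBs (7.51% of all genes), 8 of 50 in eOBs (3.82%) and 19 of 54 in the other cells (25.7%). The lists were chosen with earlier results of these data known, so these counts are a description and no test of enrichment.

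The genes whose pattern was most like each member were found by Pearson's r of log2(CPM + 1) over 69 sums of a class in a library, among 7228 genes. Sums of 1 library share depth and makeup, so r is a description. Lox was most like Col1a2 (r = 0.94), Mmp23 (0.94) and Serpinf1 (0.91), Loxl1 most like Fbln1 (0.93), Gpc3 (0.90) and Nfix (0.89), and Loxl2 most like Col5a1 (0.94), Col6a3 (0.92) and Ddr2 (0.92). Loxl3 was most like Ccdc80 (0.91), Scara3 (0.90) and Tspan3 (0.89), and Loxl4 most like Itga10 (0.87), Col11a2 (0.86) and Omd (0.84). Among the members themselves Lox was nearest to Loxl1 (0.77) and Loxl2 (0.74) and farthest from Loxl3 (0.28), and Loxl3 and Loxl4 had an r of 0.64.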

How the data were processed

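Parietal bone cells were profiled in 8 libraries, 4 WT and 4 Het. The authors made the deposited counts, which are raw UMI counts per gene and cell, with Cell Ranger (version 5.0.0 for libraries 1 to 4, 6.0.1 for libraries 5 to 8) on mm10, and did not normalize them. Every sample column was used. The members and gene lists were chosen with earlier results of these data known. The study shows the UMI limits of its OB selection in a figure that could not be read here, so OB numbers rest on a rebuilt rule. Total depth per library is given with the results.

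Cell classes needed at least 3 markers of a class at 2 or more UMIs each and a lead of 2 markers over any other class, and doublets were kept. UMIs were summed per library and subpopulation, leaving out libraries with under 10 cells. Genes were tested with edgeR 4.0.16 (filterByExpr, TMM, glmQLFit, glmQLFTest, with limma 3.58.1 and R 4.3.3), with kit version and genotype as terms for Het against WT and with the library as a term between stages or for the genotype by stage term. A gene was called at a Benjamini-Hochberg adjusted p under 0.05. Each SE is the log2 change divided by the root of its F statistic. Libraries, not cells, were the replicates, so p-values measure the spread between pools of animals. Neighbouring classes were compared by exact sign-flip tests, and the ratio of mOBs to earlier stages by an exact permutation test. The fit was tested on simulated data. Python 3.11.15, numpy 2.4.6, pandas 2.3.3 and scipy 1.17.1 handled the cells.

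Named genes were the members, partner genes called in a comparison (at most 6 per direction by fold change) and the 3 genes most like each member. Of the 31053 gene identifiers 31011 (99.9%) were in GENCODE M21. Alternatives were DESeq2 1.42.0, no filter on low counts, collagen genes left out, OB selection at 1 or 3 UMIs, under 5% mitochondrial UMIs, cells thinned to 2000 UMIs, stage limits of 0.5% and 5%, no kit version in the model, a replicate block, each library left out, and no OBs with markers of another class. Leaving out only OBs with chondrocyte markers, classes from markers at 1 UMI and permuting libraries within kit versions were added after seeing the data.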

Additional observations from a re-analysis of the deposited data

How the results depend on the processing

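Over 20 alternatives or fewer per value, 723 member values and 802 partner values kept their direction and their side of the threshold, 9 and 13 lost a call, 21 member values gained one and 58 turned direction. Lox, Loxl1 and Loxl4 between mOBs and dOBs, Lox and Loxl2 between each later stage and eOBs, and Lox and Loxl2 in OBs against other cells stayed called under every alternative that could test them. Loxl4 from eOBs to mOBs was called in 14 of 15. The fall of Loxl3 from eOBs to dOBs was called in 7 of 17 alternatives and lost without Het 3 (adjusted p = 0.0532), WT 5 (0.145), WT 6 (0.167) or Het 8 (0.122), by edgeR. The Loxl2 difference between Het and WT in mOBs ranged from 0.66 to 1.24 and was called in 4 of 20 alternatives.

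The number of members called between Het and WT in mOBs was 0 in the main test, 1 with DESeq2 (Loxl2) and 2 without a filter on low counts (Loxl2 and Loxl4), and ran from 0 to 2 when each library was left out. No filter also gave 1 in dOBs (Loxl1) and 1 for the difference between mOBs and dOBs (Loxl2), and DESeq2 gave 2 in other cells. Over all genes, 51 were called in mOBs (70.6% higher in Het), 130 with DESeq2 (58.5%), 536 without a filter (56.0%), 52 with looser selection (59.6%), 25 in thinned cells (52.0%), 34 without OBs with markers of another class, 146 without those with chondrocyte markers (54.8%), 82 with other stage limits, 0 without kit version in the model, and 11 to 166 with a library left out. Without a filter 269 genes were called in dOBs, 141 in eOBs and 89 in other cells, and in thinned cells 233 in other cells. Between stages, thinned cells gave 757 calls from eOBs to mOBs (2998 in the main test), 750 from dOBs to mOBs (3334) and 359 from eOBs to dOBs (1380), and 3741 in OBs against other cells (5784). Without OBs with markers of another class these were 1353, 1704 and 287 between stages, and from eOBs to dOBs 651 without those with chondrocyte markers, 2824 with looser and 721 with stricter selection. Without a filter the share of higher calls in OBs against other cells went from 39.0% to 24.8%, and 91 genes were called for the difference between mOBs and dOBs and 29 for that between mOBs and eOBs.

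With the replicate block, 26 genes were called in mOBs, Loxl2 differed by 1.03 (adjusted p = 0.0719, edgeR) and Loxl1 by -0.04. Deviations of libraries with the same title number correlated at -0.14 to 0.03, so the numbers were not taken as pairs, and the block changed the call of no member.

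The values below changed sign, and the cause was not tested. Of these, the fall of Loxl3 from eOBs to dOBs (-0.70, adjusted p = 0.0353, edgeR) was called in the main test and the others were not. In Het against WT in mOBs, Loxl1 was -0.01 with DESeq2 and without collagen genes, -0.29 without OBs with markers of another class, -0.19 without those with chondrocyte markers and -0.10 without kit version, Lox was 0.18 in thinned cells and Loxl3 0.06 with other stage limits. In dOBs, Loxl3 was 0.01 with stricter selection, Lox -0.29 in thinned cells, and Loxl2 0.08 and 0.11 without the OBs of these marker classes and 0.14 with other stage limits. In eOBs, Loxl3 was 0.03 with looser selection, Loxl2 -0.40 with stricter selection, -0.20 without OBs with markers of another class and -0.22 with other stage limits, Loxl1 0.12 in thinned cells, and Lox -0.03 and -0.04 without the OBs of the marker classes. From eOBs to mOBs, Loxl3 was 0.55 without OBs with markers of another class and 0.58 without those with chondrocyte markers, and from eOBs to dOBs, where its fall was called, 0.20 and 0.25. There Loxl1 was -0.56 and -0.41 in the same settings and -0.39 in thinned cells, and Loxl4 0.28 with DESeq2, 0.03 with stricter selection and 0.05 with other stage limits. From dOBs to mOBs, Loxl2 was -0.45 with other stage limits. Loxl4 in OBs against other cells was -0.02 in thinned cells. The Het minus WT difference of the ratio of mOBs to earlier stages was 0.37 for Lox and -0.07 for Loxl1 in thinned cells and -0.56 for Loxl4 with other stage limits.

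With each library left out, ranges that crossed 0 were -0.16 to 0.00 for Lox, -0.14 to 0.11 for Loxl1 in mOBs, -0.20 to 0.09 for Loxl2 in dOBs, and -0.13 to 0.26 for Loxl2 and -0.48 to 0.12 for Loxl3 in eOBs (Het against WT). In other cells they were -0.30 to 1.11 for Lox, -0.30 to 0.57 for Loxl1 and -0.02 to 0.72 for Loxl2. From eOBs to dOBs they were -0.04 to 0.27 for Loxl1 and -0.56 to 0.36 for Loxl4, in OBs against other cells -0.09 to 0.59 for Loxl4, and for the ratio -0.09 to 0.25 for Loxl3 and -0.12 to 0.39 for Loxl4. Loxl4, and in thinned cells also Loxl3, had too few counts for several alternatives, which gave no value. In eOBs the number of UMIs limits what can be seen.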
